A study of Mus musculus with 19 samples.

Results

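Dapl1, Elfn1, Ttyh1, Nnmt, Pcdh20, Mettl7b and Mgarp are 7 genes that were low or almost silent in the liver of control mouse embryos. They were many-fold higher in livers expressing the fusion kinase DNAJB1-PKA. They were chosen from the 13549 genes of the embryo count table as genes with under about 4 counts per 1000000 (CPM) in control livers and a many-fold higher level in fusion livers. The embryo values below therefore describe the choice and carry no test. All 7 passed the filter on low counts, which left 13316 genes. The tumour files, a second experiment that played no part in the choice, hold 5 of the 7, and Dapl1 and Elfn1 were not analysed here in tumours.

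The fusion joins the chaperone gene DNAJB1 to PRKACA, the gene of a catalytic subunit of the cAMP-dependent protein kinase (PKA), and drives fibrolamellar carcinoma, a liver cancer. Active PKA phosphorylates CREB, a transcription factor that in liver switches on genes of glucose production in fasting. The genes described here have diverse known roles. Elfn1 encodes a synaptic adhesion protein that binds metabotropic glutamate receptors on the facing cell, Ttyh1 a membrane protein of brain and neural progenitors, and Pcdh20 a protocadherin, a cell adhesion protein. Nnmt encodes the enzyme that methylates nicotinamide with S-adenosylmethionine as methyl donor, and Mettl7b a methyltransferase of the endoplasmic reticulum and lipid droplets that acts on thiols. Mgarp encodes a mitochondrial protein linked to transport of mitochondria and to hypoxia, and Dapl1 a small protein first described in differentiating epithelium.

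Fusion livers came from embryos at embryonic day 18.5 carrying the Rosa26 LSL-DNAJB1-PKA-GFP allele, a Cre-dependent cDNA with a GFP reporter, recombined by Alb-Cre, whose Albumin promoter limits Cre largely to the liver lineage (n = 4, libraries 6 to 9). Control livers were of the same age (n = 5, libraries 1 to 5), and the labels do not say which of these alleles the control embryos carried. The tumours were grown from 1 cell line, FL8, implanted subcutaneously in capsules of crosslinked gelatin into NSG mice, a strain without T, B and natural killer cells. Once tumours averaged 75 mm3, mice received palbociclib, which blocks the cell cycle kinases CDK4 and CDK6 (n = 5), or vehicle (n = 5), which the sample labels give as methylcellulose by gavage and the series text as PBS. Palbociclib was dosed at 75 mg/kg by mouth on 3 days, followed by 4 days off. Neither the labels nor the design text used here say from which tissue FL8 was derived or give its fusion status, and no normal tissue was analysed beside the tumours. Samples are taken as separate embryos or tumours as labelled. The labels do not name the animals, and p-values measure the spread between these samples.

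Libraries held 7.66 to 23.1 M counts (1 M is 1000000) in controls, 13.5 to 45.6 M in fusion livers, 2.96 to 33.9 M recovered reads in vehicle tumours and 24.9 to 43.1 M in palbociclib tumours. A count of 3 corresponds to 0.0658 to 0.392 CPM in embryos and 0.0695 to 1.01 CPM in tumours, and this floor covers counting error only. Prkaca was 43.4, 50.5, 38.0, 36.3 and 45.3 CPM in controls 1 to 5 and 114, 72.4, 53.8 and 52.0 CPM in fusion livers 6 to 9, so that every fusion liver was above every control (log2 fold change 0.78 ± 0.22 SE, adjusted p = 0.038, edgeR). Ribosomal protein genes took 9.68 to 10.1% of counts in controls 1 and 2 and fusion livers 8 and 9. In the other 5 livers they took 6.16 to 7.85%, a split present in both groups. The labels name no batch, and this split, seen in the counts alone, is what is called the library batch below. Whether it is technical or biological was not tested. Xist marked 5 female embryos, controls 1 and 2 and fusion livers 6, 7 and 8, at 162 to 448 CPM against 0.242 to 0.534 CPM in the other 4. Among controls this split by sex was the same as the split by ribosomal share. Values given below within a batch therefore cannot separate batch from sex in controls. In the batch of lower ribosomal share, controls 3, 4 and 5 were male and fusion livers 6 and 7 female. Values within that batch cannot separate genotype from sex. Vehicle tumour 1 stood apart, with 46.6% of its reads from mitochondrial genes against 1.24 to 6.47% in the other 9 tumours.

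The genes lie on 7 different chromosomes (GRCm38, GENCODE M21). Dapl1 spans chr2:59484653-59505020, Mgarp chr3:51388412-51396738, Elfn1 chr5:139907943-139974722, Ttyh1 chr7:4119408-4136708, Nnmt chr9:48591877-48605153, Mettl7b chr10:128958274-128960988 and Pcdh20 chr14:88464743-88471396. All are annotated as protein coding. The 250 bases before the start were taken for 6 of the 7 from the RefSeq promoter table (GRCm38.p6), which was matched by symbol. That start differs from the start of the GENCODE span for Elfn1, Ttyh1 and Mgarp. The windows of Ttyh1 and Mgarp reach into the spans given above. Printed here are 3: Dapl1, which alone held a match to a searched motif, Elfn1, the gene with the largest fold after Dapl1, which held no match, and Mettl7b, the one that was abundant in tumours. Each runs 5′ to 3′ on the gene's strand, and capitals mark motif matches.
Dapl1 (chr2:59484403-59484652, plus strand): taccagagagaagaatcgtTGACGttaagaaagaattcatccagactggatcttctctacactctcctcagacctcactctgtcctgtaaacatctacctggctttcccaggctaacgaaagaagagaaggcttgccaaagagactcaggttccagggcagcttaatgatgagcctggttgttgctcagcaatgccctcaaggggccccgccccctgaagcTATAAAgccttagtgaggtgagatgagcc
Elfn1 (chr5:139907616-139907865, plus strand): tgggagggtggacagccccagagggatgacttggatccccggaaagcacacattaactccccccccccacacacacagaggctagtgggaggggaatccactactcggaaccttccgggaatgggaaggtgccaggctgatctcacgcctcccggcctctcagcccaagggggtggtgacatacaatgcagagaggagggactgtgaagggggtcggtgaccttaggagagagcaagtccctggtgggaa
Mettl7b (chr10:128960989-128961238, minus strand): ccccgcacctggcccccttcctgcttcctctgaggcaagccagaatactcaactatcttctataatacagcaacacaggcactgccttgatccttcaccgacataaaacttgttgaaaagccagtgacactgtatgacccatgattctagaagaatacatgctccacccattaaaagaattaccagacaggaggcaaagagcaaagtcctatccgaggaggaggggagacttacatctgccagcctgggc
The motifs searched on both strands were the full cAMP response element TGACGTCA, at which CREB binds, its shortened core TGACG, which any full element also contains, and the TATA box TATAAA. In Dapl1, TGACG began 231 bases and TATAAA 29 bases before the start. None of the 6 windows held TGACGTCA, and the other 5 held none of the 3 motifs. Among all 32851 windows of this length, 1.55% held TGACGTCA, 17.8% TGACG and 12.4% TATAAA. GC content was 42.4% in Pcdh20, 49.2% in Mettl7b and 50% in Dapl1, against 60.4% in Ttyh1, 60.8% in Elfn1 and 61.6% in Mgarp, around a median of 52.4% over all windows.

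The membrane and adhesion genes were at or near 0 in controls. Elfn1 was 0.0594, 0, 0.0470, 0.0411 and 0.393 CPM in controls 1 to 5 and 24.2, 25.0, 26.2 and 14.1 CPM in fusion livers 6 to 9. The 5 controls held 12 Elfn1 reads in all and the 4 fusion livers 2132, and the group means, 0.108 ± 0.161 and 22.4 ± 5.59 CPM (SD, n = 5 and 4), differed 207-fold. Control 5 was the highest control and fusion liver 9 the lowest fusion liver, and the groups did not overlap.

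Ttyh1 was 0.297, 0, 0.893, 0.493 and 0.480 CPM in the controls and 68.8, 41.2, 69.7 and 37.8 CPM in the fusion livers. Its means were 0.433 ± 0.325 and 54.4 ± 17.2 CPM, a 126-fold difference. Fusion livers 6 and 8 were high and 7 and 9 lower, all far above the highest control. The fusion livers held 5453 Ttyh1 reads and the controls 47. Of the 50-base stretches of its transcripts, 3.87% occur in other genes, and a pair of antisense genes overlap its exons by 180 and 244 bases, while the labels do not say whether counting used strand.

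Pcdh20 was 0.119, 0.418, 0.376, 0.452 and 0.436 CPM in the controls and 17.3, 10.4, 19.1 and 8.35 CPM in the fusion livers. The means were 0.360 ± 0.138 and 13.8 ± 5.19 CPM, a 38.3-fold difference. As for Ttyh1, fusion livers 6 and 8 were higher than 7 and 9, and the lowest fusion liver stood 18.5-fold above the highest control.

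The methyltransferases differed in how even their values were among fusion livers. Nnmt was 0.297, 0.976, 0.329, 0.699 and 0.349 CPM in the controls and 26.7, 37.9, 83.8 and 40.9 CPM in the fusion livers (means 0.530 ± 0.298 and 47.3 ± 25.1 CPM, 89.3-fold). Fusion liver 8 carried 3.14 times the level of fusion liver 6, the widest spread within the fusion group among the 7 genes.

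Mettl7b was 0.535, 1.67, 0.611, 0.616 and 0.305 CPM in the controls and 15.2, 29.4, 19.5 and 14.0 CPM in the fusion livers (means 0.748 ± 0.532 and 19.5 ± 6.98 CPM, 26.1-fold). Control 2 was the highest control and fusion liver 7 the highest fusion liver, and the groups were 8.38-fold apart at their closest. Within the batch of high ribosomal share the fold was 15.2, and within the other batch, where controls were male and fusion livers female, 43.6.

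Mgarp was the gene closest to the limit of the choice, at 4.87, 4.46, 2.49, 2.05 and 2.84 CPM in the controls, and reached 42.9, 42.1, 59.2 and 25.9 CPM in the fusion livers. Its means, 3.34 ± 1.25 and 42.5 ± 13.6 CPM, differed 12.7-fold, the smallest fold of the 7. Controls 1 and 2 were the highest controls. The fold was 9.12 within their batch and 17.3 within the other, where controls were male and fusion livers female.

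Dapl1 had 1 read in all 5 controls together, in control 3 (0.0470 CPM), and 3.75, 3.86, 3.53 and 2.05 CPM in the fusion livers. The fusion livers held 321 reads. The ratio of pooled reads per library size was 325, with an exact 95% interval from 57.9 to 12868 that covers counting error only, not the spread between livers, and describes a gene chosen for this difference. Each fusion liver was above the floor of 3 counts. Its fusion mean was 3.30 ± 0.841 CPM.

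On the log2 scale the fitted differences were 7.62 for Dapl1, 7.38 for Elfn1, 6.76 for Ttyh1, 6.60 for Nnmt, 5.22 for Pcdh20, 4.93 for Mettl7b and 3.72 for Mgarp, with a median of 6.60 against -0.01 over all genes tested and -0.10 over the 2849 tested genes with a control mean under 4 CPM. The values for Dapl1 and Elfn1 depend on the prior count added to near-empty controls. All 7 had every fusion liver above every control, in the contrast by which they were chosen. That pattern held for 8.37% of all tested genes and for 4.42% of those under 4 CPM in controls. In whole liver, fewer cells expressing a gene and less RNA per cell cannot be told apart.

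**Figure D1:**
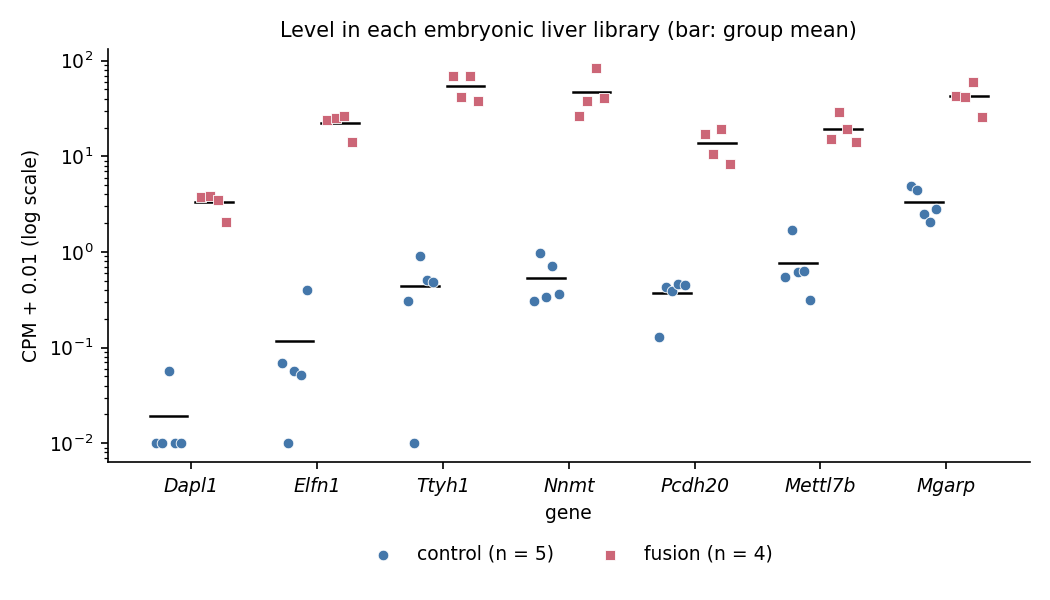
CPM of each gene in each embryonic liver library on a log axis after adding 0.01, with circles for 5 controls, squares for 4 fusion livers and a bar at each group mean. No control reaches the lowest fusion liver of the same gene, and Mgarp has the closest groups, 5.32-fold apart at their nearest points.

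Other genes were compared with the 7 at a cutoff that the 7 themselves set, so the small number passing it partly follows from the choice. At a looser measure there were more. Among genes under 4 CPM in controls, 107 others were called higher in fusion livers. Every fusion liver was above every control for 126, the 7 included. Of the 2849 genes under 4 CPM in controls, 11 had a log2 difference of at least that of Mgarp, the 7 described here and 4 more: Mtnr1a, a melatonin receptor (0.0188 to 1.61 CPM, log2 5.90), Lmod3, a leiomodin of muscle actin filaments (0.0665 to 2.62 CPM, 5.02), 2200002J24Rik (0.227 to 3.92 CPM, 4.06) and Kif1a, a kinesin motor of neurons (0.267 to 4.07 CPM, 3.96). In all 4 every fusion liver was above every control, which picking genes by a large difference favours. Just outside were Pappa (3.66) and Bmp8b (3.63). With 4 CPM or more in controls, 4 genes had a log2 difference of at least that of Mgarp. They were Sds (8.25 to 191 CPM), Tat (11.1 to 289 CPM), Pck1 (25.8 to 1043 CPM) and Got1 (76.2 to 1066 CPM). No gene with a fusion mean under 4 CPM fell by as much.

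Per kilobase of exon the order changed. In fusion livers Nnmt reached 30.0 RPKM (CPM per kilobase of exon), Mgarp 20.6, Mettl7b 15.9, Ttyh1 8.52, Elfn1 5.37, Dapl1 4.86 and Pcdh20 2.51. Ranked among 13103 genes with an exon length, Nnmt lay between the 83.3 and 92.8 percentile across the 4 fusion livers, and Pcdh20 between the 34.2 and 52.1 percentile. In controls Mgarp was at 1.62 RPKM, Mettl7b at 0.608, Nnmt at 0.336 and the other 4 under 0.07. Across the controls Mgarp lay between the 24.1 and 43.2 percentile, Mettl7b between the 7.11 and 32.1 and Nnmt between the 5.82 and 19.1. The other 4 lay no higher than the 3.46 percentile. Short Dapl1, with 679 exonic bases, thus stood close to Elfn1, whose exons span 4172 bases, although it had far fewer reads.

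The genes varied partly together across the fusion livers. Fusion liver 9 was the lowest for 6 of the 7, the exception being Nnmt, which was lowest in fusion liver 6. For those 6 it held 53.5 to 65.8% of the mean of the other 3 fusion livers, and for Nnmt 82.6%. Fusion liver 8 was the highest for 5 genes and fusion liver 7 for Dapl1 and Mettl7b. The shares of all tested genes that were lowest or highest in each liver are not given here. The pattern is therefore not shown to be particular to the 7. Fusion liver 6 had the most Prkaca reads and was the highest for none of the 7, and fusion liver 9 had the least Prkaca, at 52.0 CPM. Fusion liver 9 was also the 1 male of its group, and with 4 livers neither relation was tested. Reads of the fusion cDNA were not separated from those of the Prkaca gene itself. The Prkaca level is therefore not a measure of fusion dose.

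**Figure D2:**
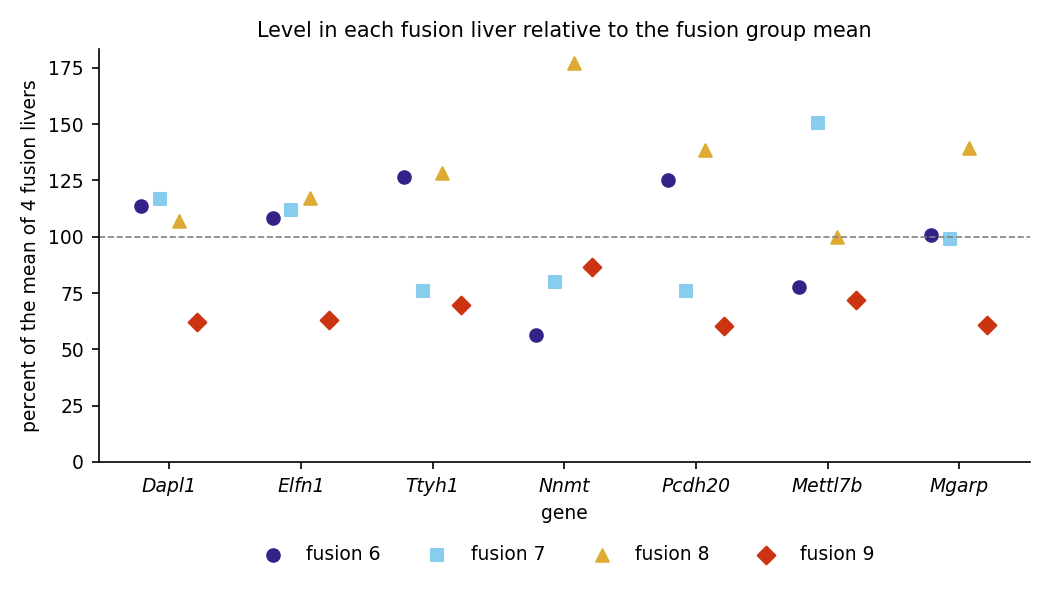
Level of each gene in each of the 4 fusion livers as a percentage of the mean of the group, with the dashed line at 100%. Fusion liver 9 lies lowest for every gene except Nnmt, and Nnmt in fusion liver 8 is the highest point.

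The nearest genes of the embryo table on each side were examined, since they were not part of the choice. They lay from 0 to 129 kb away, except around Pcdh20, and gave 13 that could be tested, and 1 of them rose, beside a background of 12.8% of all tested genes called in either direction (edgeR quasi-likelihood test, Benjamini-Hochberg adjustment). With the library batch as a covariate 5 of the 13 were called, Itga7, Elf2 and Ndufc1 higher and Leng8 and Mad1l1 lower, in a fit that called 32.6% of all genes. The gene called without the covariate was Itga7, which encodes an integrin subunit that binds laminin, at 0.663 ± 0.157 CPM in controls and 4.90 ± 1.83 CPM in fusion livers (log2 2.92 ± 0.30 SE, adjusted p = 2.1e-04). Itga7 lies on the strand opposite Mettl7b and their exons overlap by 9 bases, so that reads there cannot be assigned without strand. The other 12 ranged from -0.91 for Leng8, a gene 331 bases from Ttyh1 (adjusted p = 0.055), to 0.71 for Ndufc1, a subunit of respiratory complex I beside Mgarp (adjusted p = 0.064). Pkp4 and Tanc1 beside Dapl1 were at -0.18 and -0.32, and Psmg3 and Mad1l1 beside Elfn1 at -0.09 and -0.60. Lair1 on the other side of Ttyh1 was at 0.07 and Elf2 on the other side of Mgarp at 0.35. Gm5617 and Zbtb16 beside Nnmt were at 0.15 and 0.09, while Tdrd3 and Dach1, the nearest genes of the table to Pcdh20 but 919 and 9315 kb away, were at 0.20 and 0.15.

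**Figure D3:**
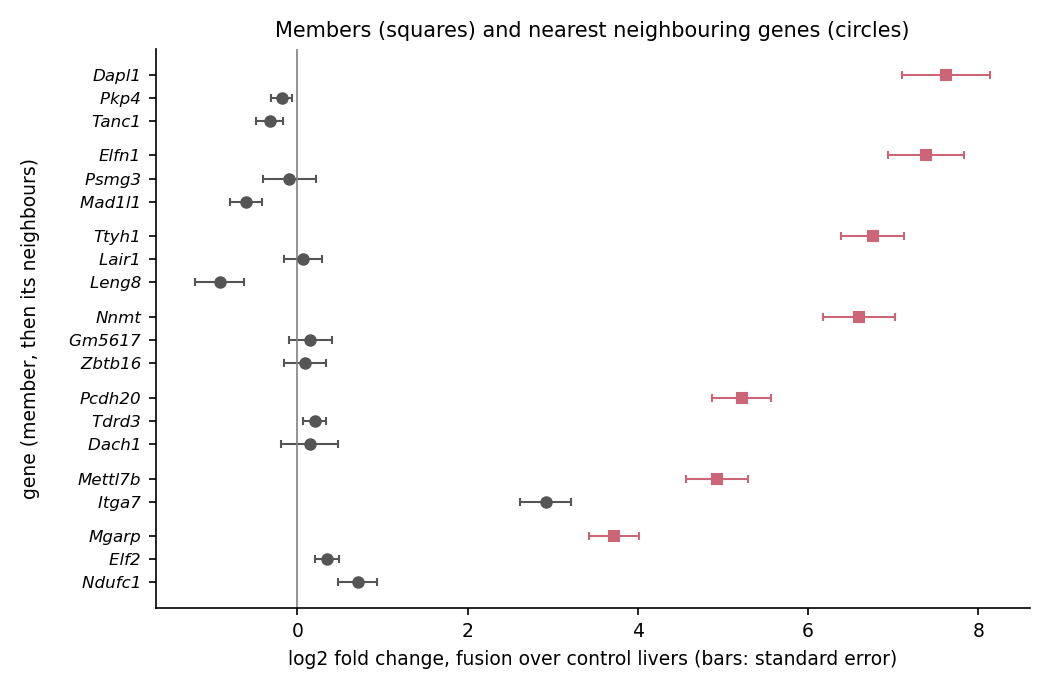
Log2 fold change of fusion over control livers with its standard error, for each of the 7 genes (squares) and its nearest genes in the table (circles). The squares lie between 3.72 and 7.62 and the circles between -0.91 and 0.71, apart from Itga7 at 2.92.

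Relatives of the 7 were also read. Of 19 listed relatives 11 were tested, and Ttyh2 alone was called. In this fit 5.99% of all tested genes were called higher and 6.81% lower. Ttyh2 rose from 28.9 ± 2.33 to 55.3 ± 8.50 CPM (log2 0.94 ± 0.12, adjusted p = 0.0011, edgeR). It encodes a tweety protein like Ttyh1 and, unlike it, was clearly expressed in controls. The median over the 11 was 0.17. With the library batch as a covariate 3 were called higher, in a fit that called 16.1% of all genes higher. The values of Inmt, the methyltransferase related to Nnmt, were 0.422 ± 0.134 and 0.893 ± 0.562 CPM (adjusted p = 0.137), and those of Mettl7a1 22.8 ± 8.63 and 18.5 ± 5.96 CPM (adjusted p = 0.534).

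The metabolic surroundings of Nnmt moved in both directions. Among 19 tested genes of NAD and nicotinamide metabolism none rose and 4 fell, with a median of 0.21, where 5.99% of all tested genes were called higher and 6.81% lower. With the library batch as a covariate 8 of these NAD genes were called higher, in a fit that called 16.1% of all genes higher. Those that fell were Aox3, an aldehyde oxidase (31.5 ± 10.6 to 9.78 ± 4.26 CPM, log2 -1.68), Nmrk1, a nicotinamide riboside kinase (-0.69), and Kmo and Haao of the kynurenine pathway (-0.67 and -0.56). The calls of Kmo and Haao were lost in 9 and 12 of 16 alternative fits. Nampt, which makes nicotinamide mononucleotide from the substrate of Nnmt, was 39.2 ± 2.83 and 48.3 ± 4.63 CPM (adjusted p = 0.0817, edgeR). Among 11 genes of methyl donor supply and small-molecule methylation 2 rose and 2 fell, with a median of -0.12. Mat1a, the liver enzyme making S-adenosylmethionine, rose from 287 ± 73.4 to 1288 ± 333 CPM, and Gnmt, which methylates glycine, from 328 ± 12.0 to 838 ± 212 CPM. Gamt, of creatine synthesis, fell by 1.32 and Pemt, of phosphatidylcholine synthesis, by 0.68 on the log2 scale, the call of Pemt being lost in 9 of 16 alternatives.

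Of 11 tested genes of mitochondrial transport and its hypoxia regulators, the known surroundings of Mgarp, 2 rose and none fell, with a median of 0.09. In this fit, also used for the PKA and CREB list below, 5.99% of all tested genes were called higher and 6.81% lower. Mfn1, of mitochondrial fusion, rose by 0.50 and Egln1, a prolyl hydroxylase acting on hypoxia-inducible factor, by 0.47 on the log2 scale, and the call of Mfn1 was lost in 8 of 16 alternatives. With the library batch as a covariate 5 of the 11 were called higher, in a fit that called 16.1% of all genes higher. None of the listed glutamate receptor partners of Elfn1 was tested. Of 16 tested targets of PKA and CREB, 10 rose and none fell, with a median of 1.03, among them Pck1 of glucose production (25.8 ± 20.6 to 1043 ± 394 CPM), Tat and Sds of amino acid breakdown and the coactivator Ppargc1a (8.19 ± 0.999 to 61.7 ± 16.3 CPM). The list was chosen with earlier results of these samples known and is not independent evidence of its direction.

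Across the 9 livers the non-member genes whose log2 CPM ran closest to the mean profile of the 7 were Got1, a transaminase (Pearson r = 0.999, Spearman rho = 0.933), Nudt19 (r = 0.994), Sds (r = 0.993), Ppargc1a (r = 0.992) and Sdc1 (r = 0.991). The livers form separate control and fusion clusters by the choice of the genes, so these values describe likeness and no more.

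Markers of other cell types were read beside these values. Of 8 neuron markers the table holds Gap43, at 0.279 to 1.05 CPM in controls and 0.411 to 1.25 CPM in fusion livers. Sox10, of glia and Schwann cells, was lower in fusion livers (0 to 0.297 CPM against 0.279 to 1.74 CPM, adjusted p = 0.0047, edgeR). All 5 bile duct markers were in the table, and their sum was 49.9 to 73.8 CPM in controls and 11.4 to 41.4 CPM in fusion livers. Of 7 fibroblast and stellate markers, Col1a1 and Col1a2 were called lower. The 7 hepatocyte markers summed to 137111 to 174446 CPM in controls and 166388 to 194506 CPM in fusion livers. Afp, the fetal albumin relative, was called higher (log2 0.86, adjusted p = 0.0178, edgeR), the other 6 had negative log2 differences, and of these Apoa1 was called lower (-0.89, adjusted p = 0.0382, edgeR). Thus the defining markers of the labelled tissue were present in both groups. The part of these markers in the levels of the 7 genes was not tested.

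In FL8 tumours the 5 genes that could be read took different levels, and only Mettl7b was abundant. Mettl7b was 70.2, 323, 246, 368 and 381 CPM in vehicle tumours 1 to 5 and 338, 432, 348, 317 and 343 CPM in palbociclib tumours 1 to 5. Every tumour was above every embryonic liver, although the tables were normalised separately and the step between them was not tested. Per kilobase Mettl7b reached 226 RPKM in vehicle and 289 RPKM in palbociclib tumours, between the 97.1 and 99.0 percentile of 17469 genes. Reads of FL8 cells were not separated from those of host cells. Erythroid markers summed to 1297 to 96613 CPM with vehicle and 1729 to 8454 CPM with palbociclib. Macrophage markers summed to 55.0 to 1191 and 55.5 to 147 CPM, and fibroblast and stellate markers to 39.9 to 243 and 52.5 to 197 CPM. The part of host cells in the levels of the 5 genes was not tested.

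Vehicle tumour 1 was the low one, and its hepatocyte marker sum was 37413 CPM against 78721 to 123938 CPM in the other 9. With mitochondrial genes taken out its Mettl7b level was 131 CPM, still below the others at 252 to 451 CPM. The part of these measures in its low value was not tested. The group means were 278 ± 127 CPM with vehicle and 356 ± 44.2 CPM with palbociclib (SD, n = 5 each), a log2 difference of 0.56 ± 0.38 SE on the log2(CPM + 1) scale (limma, adjusted p = 0.953). Without vehicle tumour 1 the difference was 0.12.

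Nnmt was detected in every tumour. It was 2.24, 2.80, 9.54, 6.18 and 8.46 CPM with vehicle and 6.99, 7.53, 6.77, 5.47 and 6.92 CPM with palbociclib. Per kilobase this was 3.71 RPKM with vehicle and 4.27 RPKM with palbociclib. Among 17469 genes it lay between the 45.2 and 70.8 percentile with vehicle and the 59.4 and 68.2 percentile with palbociclib. Vehicle tumours 1 and 2 were low, and the palbociclib values fell inside the vehicle range. The means were 5.84 ± 3.27 and 6.74 ± 0.762 CPM (log2 difference 0.32 ± 0.35, adjusted p = 0.953, limma), and without vehicle tumour 1 the difference was 0.09.

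Ttyh1 was 0.472, 2.18, 1.70, 0.888 and 0 CPM in vehicle and 1.88, 0.623, 1.81, 1.11 and 0.0805 CPM in palbociclib tumours. The 0 came from vehicle tumour 5, the shallowest library, where 3 counts make 1.01 CPM. The groups overlapped over their whole range (log2 difference 0.07 ± 0.42, adjusted p = 0.987, limma), and the sign turned to -0.16 without vehicle tumour 5 and to -0.059 with edgeR on recovered reads.

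Mgarp was 1.03, 1.04, 1.49, 0.969 and 2.03 CPM in vehicle and 1.60, 0.363, 0, 0.417 and 1.01 CPM in palbociclib tumours. It missed the filter of a mean of 1 CPM. In the fit without that filter its log2 difference was -0.52 ± 0.28 (unadjusted p = 0.0799, adjusted p = 0.959, limma), lower in 3 of 5 palbociclib tumours than in any vehicle tumour. The log2 difference was -1.15 with edgeR and -1.18 with DESeq2 on recovered reads.

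Pcdh20 had 26 reads in the 10 tumours and was at 0 in 6 of them. Its values were 0.177 and 0.190 CPM in vehicle tumours 1 and 2 and 0.156 and 0.232 CPM in palbociclib tumours 2 and 4. With so few reads a difference between treatments was not detectable at this depth.

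**Figure D4:**
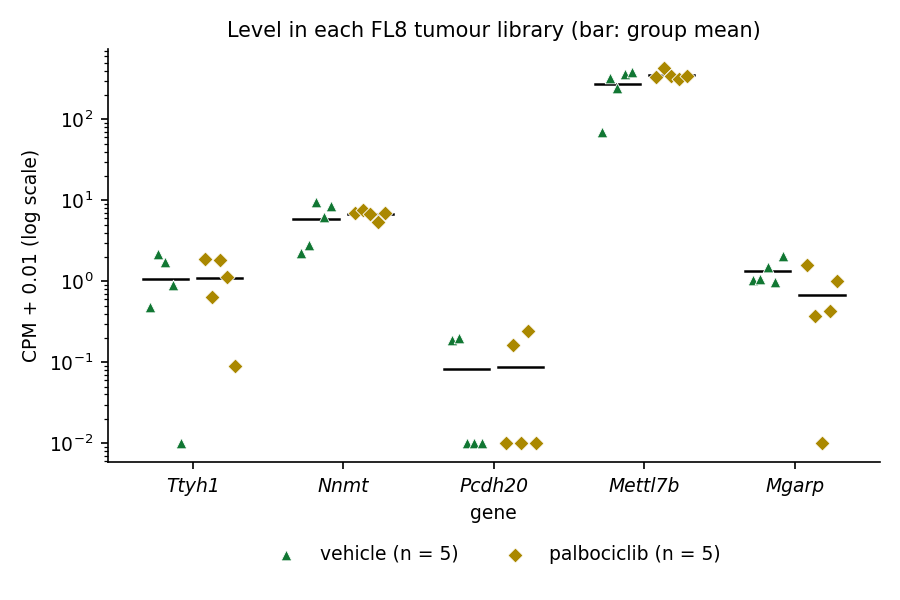
CPM of the 5 genes held in the tumour files in each tumour library, on a log axis after adding 0.01, with triangles for 5 vehicle tumours, diamonds for 5 palbociclib tumours and a bar at each group mean. Mettl7b lies between 70.2 and 432 CPM, Nnmt between 2.24 and 9.54 CPM, and the others at or below 2.18 CPM.

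None of the 3 genes that passed the tumour filter was called, nor was any of the 12829 genes tested (0% with limma, smallest adjusted p = 0.953). With no adjustment 586 genes, or 4.57%, had a p under 0.05. On recovered reads edgeR called 0 genes and DESeq2 8. The median log2 difference over all genes was 0.14 as deposited and 0.01 after TMM rescaling. Relative to the former, the differences were 0.42 for Mettl7b, 0.18 for Nnmt and -0.08 for Ttyh1. The lists around the 7 gave 0 calls in tumours.

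Among other genes under 4 CPM in control livers and called higher in fusion livers, 96 of 107 were in the tumour files, and 69 of these (71.9%) averaged at least 1 CPM and 32 (33.3%) at least 10 CPM in tumours. Of the remaining genes under 4 CPM, 1458 of 2294 (63.6%) averaged at least 1 CPM and 385 (16.8%) at least 10 CPM. The 5 readable genes thus had 1 above 10 CPM, Mettl7b. In tumours Mtnr1a was 2.87 ± 1.29 CPM with vehicle and Kif1a 3.74 ± 1.92 CPM. Ttyh2 and Mettl7a1, relatives of Ttyh1 and Mettl7b, reached 52.3 ± 27.5 and 310 ± 122 CPM with vehicle. Itga7, the neighbour of Mettl7b that rose in fusion livers, was 2.58 to 13.3 CPM over the 10 tumours.

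Likeness over the 10 tumours was also described. The closest profiles to Mettl7b were Ces2e, a carboxylesterase (r = 0.986, and 0.812 without vehicle tumour 1), and Sqle, an enzyme of cholesterol synthesis (r = 0.982 and 0.772). Those closest to Nnmt were Nsmce1 (r = 0.959) and Suclg1 (r = 0.933), and those closest to Ttyh1 Tbc1d5 (r = 0.983) and 1810010H24Rik (r = 0.950). These were the highest over all genes tested, in libraries that share depth differences, and they carry no p.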

How the data were processed

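For the embryos the authors deposited a table of raw counts by gene symbol, made from poly-A enriched RNA of 9 livers, aligned with STAR 2.5.1b to mm10 and handled with DESeq2, per the submitters' processing notes. Its 9 columns of scaled fragments were not used. The tumour files hold CPM values deposited by the authors for 17606 Ensembl IDs, and the processing notes name cutadapt 2.10, HISAT2, featureCounts, DESeq2 and R 4.1.2. Steps not named there are not given in the sources used here. Tumour CPM were whole multiples of 1 read within 0.001, so 100% of values gave whole reads, on which edgeR called 0 genes.

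Embryo counts were fitted with edgeR 4.0.16 (R 4.3.3, TMM, filterByExpr, quasi-likelihood test). Tumours were fitted with limma 3.58.1 with trend on log2(CPM + 1), at a mean of at least 1 CPM, a scale that understates changes of low genes. Adjustment was by Benjamini-Hochberg over all tested genes, with calls at an adjusted p under 0.05. DESeq2 1.42.0 was an alternative. Embryo CPM are TMM-scaled. Both fits were tested on simulated data.

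The 7 genes, the gene lists and the markers were chosen with earlier results of these data known. Named were the 7 genes, Prkaca and Dnajb1, up to 4 called genes per list, near-silent genes rising at least as much as the smallest of the 7, nearest neighbours and closest profiles. A few uncalled relatives and neighbours were added after their values were seen. Dnajb1 was 46.9 ± 4.78 CPM in controls and 63.0 ± 9.28 CPM in fusion livers. Rows that were not in the files were not analysed here.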

Additional observations from a re-analysis of the deposited data

Results flagged for a closer look

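In 6 of 24 groups of libraries 1 value stood apart from the rest of its group, and chance alone gives about 1.2. Of these, 5 are embryo values, which the choice of the genes used, so the number is no test, and a single read beside 0 in all other libraries always stands apart. Control 3 held the single Dapl1 read, 0.0470 CPM, beside 0 in the other 4 controls. Control 5 had 0.393 CPM of Elfn1 against 0 to 0.0594 CPM in the others, and fusion liver 9 had 14.1 CPM of Elfn1 against 24.2 to 26.2 CPM. Control 1 was low for Pcdh20, at 0.119 CPM against 0.376 to 0.452 CPM. Control 2, the shallowest embryo library, was high for Mettl7b, at 1.67 CPM against 0.305 to 0.616 CPM. Palbociclib tumour 2 was high for Mettl7b, at 432 CPM against 317 to 348 CPM.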

How the results depend on the processing

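Over 16 alternative fits of the same livers no log2 difference of the 7 genes in embryos changed direction. The genes were chosen for this difference in these livers, so the kept direction is no separate support. Of 112 values, 101 were classed as the same as in the main fit and 11 as moved. The ranges were 7.24 to 9.09 for Dapl1, 7.09 to 8.84 for Elfn1, 6.48 to 7.97 for Ttyh1 and 6.09 to 6.92 for Nnmt. For Pcdh20 the range was 5.00 to 5.96, for Mettl7b 4.20 to 5.41 and for Mgarp 3.18 to 4.11. The count of 1704 genes called in embryos became 4345 with the library batch as a covariate, 2589 and 2950 within each batch, and 969 to 1581 when 1 liver was left out (969 without control 3, 1107 without fusion 7, 987 without fusion 8); DESeq2 gave 2489. In the batch of lower ribosomal share controls were male and fusion livers female, so the count within it cannot separate genotype from sex. The tumour count of 0 became 8 with DESeq2 and stayed from 0 to 0 when 1 tumour was left out.

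Ttyh1 in tumours turned to -0.059 with edgeR and -0.068 with DESeq2 and ranged from -0.16 (without vehicle 5) to 0.28 when 1 tumour was left out, being -0.024 without vehicle 1. Pcdh20 turned to -0.41 with DESeq2. Neighbours near 0 also changed sign. Batch 1 was that of high ribosomal share, and in batch 2 controls were male and fusion livers female. Within batch 1 Tanc1 was at 0.020 and Zbtb16 at -0.24, and within batch 2 Pkp4 was at 0.035, Lair1 at -0.16 and Gm5617 at -0.34. When 1 liver was left out, Psmg3 ranged from -0.29 to 0.16, Lair1 from -0.00042 to 0.24, Gm5617 from -0.050 to 0.36, Zbtb16 from -0.048 to 0.28 and Dach1 from -0.044 to 0.39. The cause was not tested. Calls of Leng8, Ndufc1, Mad1l1, Elf2 and Tanc1 appeared in 5, 6, 4, 2 and 1 of 16 fits. The count of NAD genes called ranged from 0 to 8 higher and from 1 to 5 lower, that of mitochondrial transport genes from 0 to 5 higher, and that of PKA and CREB targets from 7 to 12 higher. The 8 NAD genes and 5 mitochondrial transport genes came with the library batch as a covariate, a fit that called 16.1% of all genes higher.

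With the tumour number as a replicate block 0 genes were called. Same-numbered tumours shared only a number, with correlations of their deviations from -0.317 to 0.00223. No paired analysis was possible for the embryos because control and fusion livers share no numbers.

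Depth limits Pcdh20 in tumours, at 0 in 6 of 10 libraries, and Dapl1 and Elfn1 in controls, with 1 and 12 reads in all.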
